A study of Homo sapiens with 12 samples.

Results

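The change of untreated xenograft tumours between the collection times of the study was taken from the human genes of 6 of 12 tumour libraries. They are 3 tumours given vehicle for 2 weeks and collected at the stage labelled initial, and 3 tumours given vehicle for 2 weeks and collected after a recovery period. All grew from the human cell line MCFDCIS after the cells were placed under the skin of athymic nude mice, which lack T cells, and had 2 weeks to establish before dosing. The length of the recovery period is not given in the labels, so the age of the later tumours is not known here. The other 6 libraries came from tumours of the same line treated daily with palbociclib, an inhibitor of the kinases CDK4 and CDK6. The dose was 50 mg per kg by mouth, with 3 tumours at each stage. These libraries entered the same model as the vehicle libraries. The filter, the scaling and the estimated spread behind the vehicle p-values therefore rest on all 12 libraries. The labels attach the palbociclib dosing text to every sample, and the vehicle groups are those whose own treatment label reads vehicle. Since 1 cell line was used and no label ties a tumour to a mouse, the p-values below measure the spread between tumours, which may be technical in part. Of 58243 human genes listed, 18628 had enough counts to be tested.

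Xenografts of this kind are used as a model of ductal carcinoma in situ, in which malignant cells fill a breast duct behind a basal cell layer. As such a lesion expands, its inner cells lie farther from vessels, and low oxygen stabilises the hypoxia-inducible factors, which bind a short promoter core and switch on glucose uptake and glycolysis. Vehicle tumours that go on growing beside a treated arm are the reference for the passage of time, and the recovery comparison of the treated arm contains that same passage of time.

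The tumour cell markers were expressed in all 6 libraries. The summed level of 10 such markers, among them the basal keratins KRT5 and KRT14, the luminal keratins KRT8 and KRT18 and the epithelial adhesion genes EPCAM and CDH1, was 5053 to 5580 CPM in the initial tumours and 5986 to 7292 CPM in the recovery tumours. CPM are a gene's counts scaled to the same human total in every library. The members did not all follow the sum: 8 of 10 had positive log2 fold changes, against 49.4% of all genes. EPCAM and CDH1 were negative, at -0.18 and -0.23. In 3 of 10 all recovery tumours were higher, against 6.71% of all genes. Human counts of macrophage genes C1QA, C1QB and C1QC were 0 in all 6 libraries, as was the fibroblast gene DPT, which allows levels up to 0.247 to 0.454 CPM (3 counts per library, counting error only). Of 10 macrophage markers, 9 were under 1 CPM in all 6 libraries. The exception, CSF1R, was at 3.90, 8.54 and 5.54 CPM in initial and 9.36, 16.6 and 8.72 CPM in recovery tumours, all higher. The neutrophil marker S100A9, also in the keratinisation list used below, was at 197, 370 and 204 CPM and then 219, 221 and 164 CPM. Of 8 endothelial markers, 4 were under 1 CPM in all 6 libraries, while PECAM1 was at 39.0 to 62.8 CPM and KDR at 12.6 to 47.2 CPM. The part of misassigned mouse reads in these values was not tested. The mouse share of gene counts, a measure of host tissue, was 16.4% ± 0.963 (SD, n = 3) at the initial stage and 16.3% ± 1.93 (SD, n = 3) at recovery, with an exact two-sided permutation p of 1, where 0.1 is the smallest p that 3 against 3 can give. In bulk tumours, fewer cells of a type and less RNA per cell cannot be told apart.

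Library 2 of the vehicle recovery group stood apart, and the main results are given with and without it. Among 14631 genes with a mean log2 CPM of at least 1, this library was more than 2-fold above both others of its group in 429 genes and more than 2-fold below both in 1413. In the other 11 libraries of the study these counts were 5 to 166 above and 7 to 97 below. On the first principal component of the 6 vehicle libraries, which held 60.4% of the variance, it lay at 102 and the other 5 at -41.5 to -2.8. Initial libraries 2 and 3 differed in another way, with 5.32% and 11.2% of human counts from the mitochondrial genome against 0.674% to 2.64% in the other 4. Rows of the files that name no gene took 52.8% to 69.1% of all counts at the initial stage and 37.0% to 57.3% at recovery, and library 2 had the lowest share. The vehicle libraries held 8004903 to 14572683 counts in genes.

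**Figure D1:**
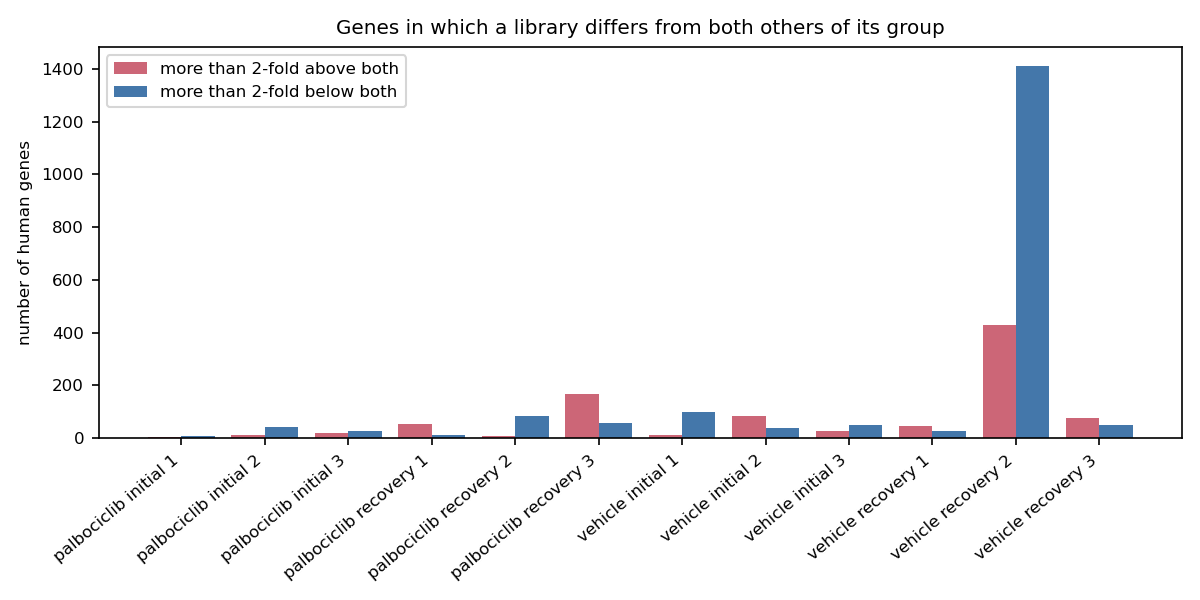
Number of human genes (vertical axis, linear from 0) in which each of the 12 libraries lies more than 2-fold above (red bars) or below (blue bars) both others of its group, among 14631 genes. Vehicle recovery library 2 has 429 and 1413 such genes and no other library has more than 166 in either direction.

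The first question was which genes differ between untreated tumours of the 2 collection times. No gene passed the test: 0 of 18628 genes, or 0.0%, had an adjusted p under 0.05 with edgeR's quasi-likelihood test and Benjamini-Hochberg adjustment over all genes. At an unadjusted p under 0.05 there were 2687 genes, or 14.4%, of which 1484 (7.97%) had higher and 1203 (6.46%) lower values at recovery. In a model of only the 6 vehicle libraries 0 genes passed as well, and 1117 of 16985 had an unadjusted p under 0.05. DESeq2 called 83 genes at an adjusted p under 0.05, 46 higher (0.247%) and 37 lower (0.199%). Without vehicle recovery library 2, edgeR called 4 of 19343 genes, 2 in each direction (0.0103% each). These were FILIP1 and UPP1, higher, and NTRK2 and INSYN2B, lower. The groups did not overlap in 1250 genes that were higher (6.71%) and 1495 that were lower (8.03%) at recovery, and without library 2 the shares were 10.5% and 10.4%. The genes named next are the 5 in each direction with the smallest p, and are given as values.

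The lowest p belonged to INSYN2B (ENSG00000204767, chromosome 5, 169864264 to 169980740 on GRCh38), a member of a family of inhibitory synapse proteins. Its level was 18.6, 14.2 and 17.1 CPM in the initial tumours and 7.70, 5.58 and 7.94 CPM in the recovery tumours. Every recovery tumour thus lay below every initial tumour, with means of 16.6 ± 2.26 and 7.07 ± 1.30 CPM (SD, n = 3). The log2 fold change was -1.24 ± 0.17 (SE), a 2.36-fold lower level, with an adjusted p of 0.0528 by edgeR. Without vehicle recovery library 2 it was -1.09 with an adjusted p of 0.0217, past the threshold. INSYN2B passed in 9 of 19 alternative settings and was lower in all 19. The 9 include the fits without a low-count filter, with and without robust estimation, each of which called 1124 genes.

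NTRK2 (ENSG00000148053, chromosome 9, 84668551 to 85027070), which encodes TrkB, the receptor for brain-derived neurotrophic factor, was at 442, 426 and 424 CPM in the initial tumours and at 222, 106 and 207 CPM in the recovery tumours. The initial tumours lay close together and the recovery tumours were all lower, with library 2 the lowest. The log2 fold change was -1.27 ± 0.21 (SE), with an adjusted p of 0.164 by edgeR. Without library 2 the log2 fold change was smaller at -1.003, and its adjusted p was 0.000734. Its promoter is shown here because NTRK2 was the gene of lowest adjusted p in that fit. The sequence runs from 250 bases before to 50 bases after the annotated start (RefSeq, GRCh38.p14, chr9:84669056-84669355, plus strand). Capitals mark the single match to the core that hypoxia-inducible factors bind, ACGTG or GCGTG on either strand. This core stood in 48.4% of 35116 promoters of the same length, and NTRK2 is not in the hypoxia list used below. The window also holds 1 cell cycle homology element, TTTGAA, and 1 CCAAT box, found in 15.2% and 34.6% of all promoters. Binding was not tested.
NTRK2: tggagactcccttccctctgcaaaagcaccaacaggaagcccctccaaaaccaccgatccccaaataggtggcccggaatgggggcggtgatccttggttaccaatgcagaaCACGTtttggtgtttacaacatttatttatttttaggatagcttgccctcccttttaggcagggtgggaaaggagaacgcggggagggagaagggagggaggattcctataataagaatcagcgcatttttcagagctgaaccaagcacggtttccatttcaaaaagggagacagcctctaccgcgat

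NTNG1 encodes the membrane-anchored axon guidance protein netrin-G1. It was at 40.2, 40.8 and 35.8 CPM at the initial stage and 19.4, 15.8 and 13.5 CPM at recovery. The groups were separate, and here library 2 lay between the other recovery tumours. The log2 fold change was -1.25 ± 0.21 (SE), with an adjusted p of 0.164, and -1.22 without library 2 (adjusted p = 0.203, edgeR). RBM20, a splicing factor known for the titin transcript, stood at 6.59, 6.15 and 9.65 CPM and then at 2.80, 0.866 and 2.47 CPM, with a log2 fold change of -1.85 ± 0.34 (SE) and -1.47 without library 2. The noncoding RNA LINC02006 was low throughout, at 3.21, 5.02 and 2.85 CPM and then 1.05, 0.673 and 0.260 CPM, with a log2 fold change of -2.39 ± 0.40 (SE) and -2.35 without library 2. Both had lower values in every recovery tumour, and their adjusted p-values were 0.198 and 0.164 by edgeR.

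Among genes with higher values, EVA1A, an endosome and lysosome protein linked to autophagy, had the smallest p. Its level was 44.3, 49.0 and 45.9 CPM in initial and 68.1, 80.02 and 65.4 CPM in recovery tumours. This is 1.54-fold higher, a log2 fold change of 0.62 ± 0.11 (SE) with an adjusted p of 0.164, or 0.53 without library 2 (adjusted p = 0.0766, edgeR). AHR, the ligand-activated aryl hydrocarbon receptor, was at 48.1, 73.6 and 72.0 CPM and then at 135, 115 and 110 CPM. The lowest recovery tumour was well above the highest initial one, and library 2 lay between the other recovery tumours. Its log2 fold change was 0.90 ± 0.16 (SE), with an adjusted p of 0.198, and 0.94 without library 2 (adjusted p = 0.102, edgeR).

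DUSP10, a phosphatase that switches off the stress kinases p38 and JNK, was at 18.0, 30.0 and 19.9 CPM and then at 42.9, 41.6 and 40.3 CPM. The recovery tumours were close to one another, and the wider spread was in the initial group. Its log2 fold change was 0.88 ± 0.17 (SE), with an adjusted p of 0.210, and 0.88 without recovery library 2 (adjusted p = 0.0766, edgeR). DUSP10 passed with initial library 2 left out (adjusted p = 0.0296, edgeR). UPP1 (chromosome 7, 48088628 to 48108733), the uridine phosphorylase that releases ribose from uridine, was at 47.9, 69.9 and 58.1 CPM and then at 96.1, 81.8 and 99.9 CPM. Its log2 fold change was 0.66 ± 0.13 (SE, adjusted p = 0.210), and 0.75 without library 2, where it passed (adjusted p = 0.0450, edgeR).

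ABCA1, the transporter that exports cholesterol from cells, had the highest fold of the 5. It was at 3.21, 3.39 and 2.37 CPM in initial and 6.48, 14.04 and 7.29 CPM in recovery tumours, with library 2 far above the others. The log2 fold change was 1.62 ± 0.31 (SE), 3.07-fold, with an adjusted p of 0.210, and 1.18 without library 2 (adjusted p = 0.135, edgeR). FILIP1 (chromosome 6, 75291859 to 75493738), a filamin-binding protein, was picked after its values were seen because it passed without library 2. It stood at 4.94, 5.52 and 6.80 CPM and then at 18.9, 8.85 and 11.3 CPM, with a log2 fold change of 1.20 ± 0.26 (SE). Without library 2 it was 1.43, with an adjusted p of 0.0378 by edgeR.

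**Figure D2:**
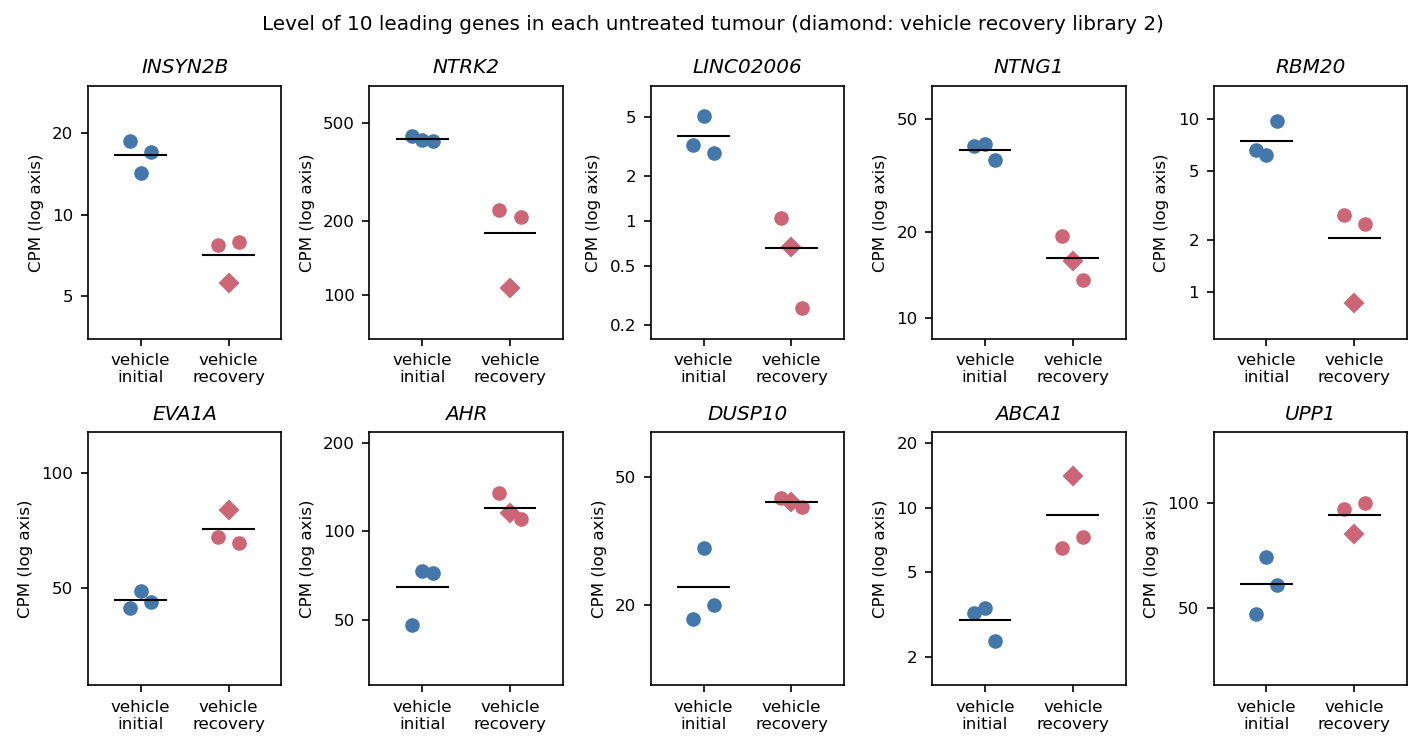
Level in CPM (log axis) of the 5 genes with the smallest p and lower values (top row) and the 5 with higher values (bottom row) in the 3 initial (blue) and 3 recovery (red) vehicle tumours, with group means as bars and vehicle recovery library 2 as a diamond. In all 10 genes the groups are separate, from INSYN2B at 14.2 to 18.6 against 5.58 to 7.94 CPM to UPP1 at 47.9 to 69.9 against 81.8 to 99.9 CPM.

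Leaving out another library brought out other genes. Without vehicle recovery library 1, 6 genes passed, all lower: INSYN2B, NTRK2, PDZRN3, THRSP, COLCA1 and the smooth muscle actin ACTA2. PDZRN3, a ubiquitin ligase, was at 32.1, 33.0 and 28.6 CPM in initial and 13.3, 4.04 and 6.37 CPM in recovery tumours, so library 1 was its highest recovery value. Over all 6 tumours its log2 fold change was -1.96 ± 0.37 (SE), with an adjusted p of 0.210 by edgeR, and -1.63 without recovery library 2. ACTA2 was at 57.0, 37.0 and 41.3 CPM and then at 40.6, 18.3 and 17.8 CPM, and its groups overlapped. The 4 genes of this set other than INSYN2B and NTRK2 were also picked after their values were seen.

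Gene lists were then read as groups. Of 658 genes in 27 lists, 616 were tested. Since none of them passed in the 6 tumours, each list is described by its counts and its median log2 fold change, beside a median of -0.005 over all genes, of which 49.4% were positive and 50.6% negative. The lists were chosen with earlier results of these data known, so the shares of all genes given beside them are a description and no test. The levels of the lists in each tumour showed library 2 as the highest recovery tumour in most of them.

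**Figure D3:**
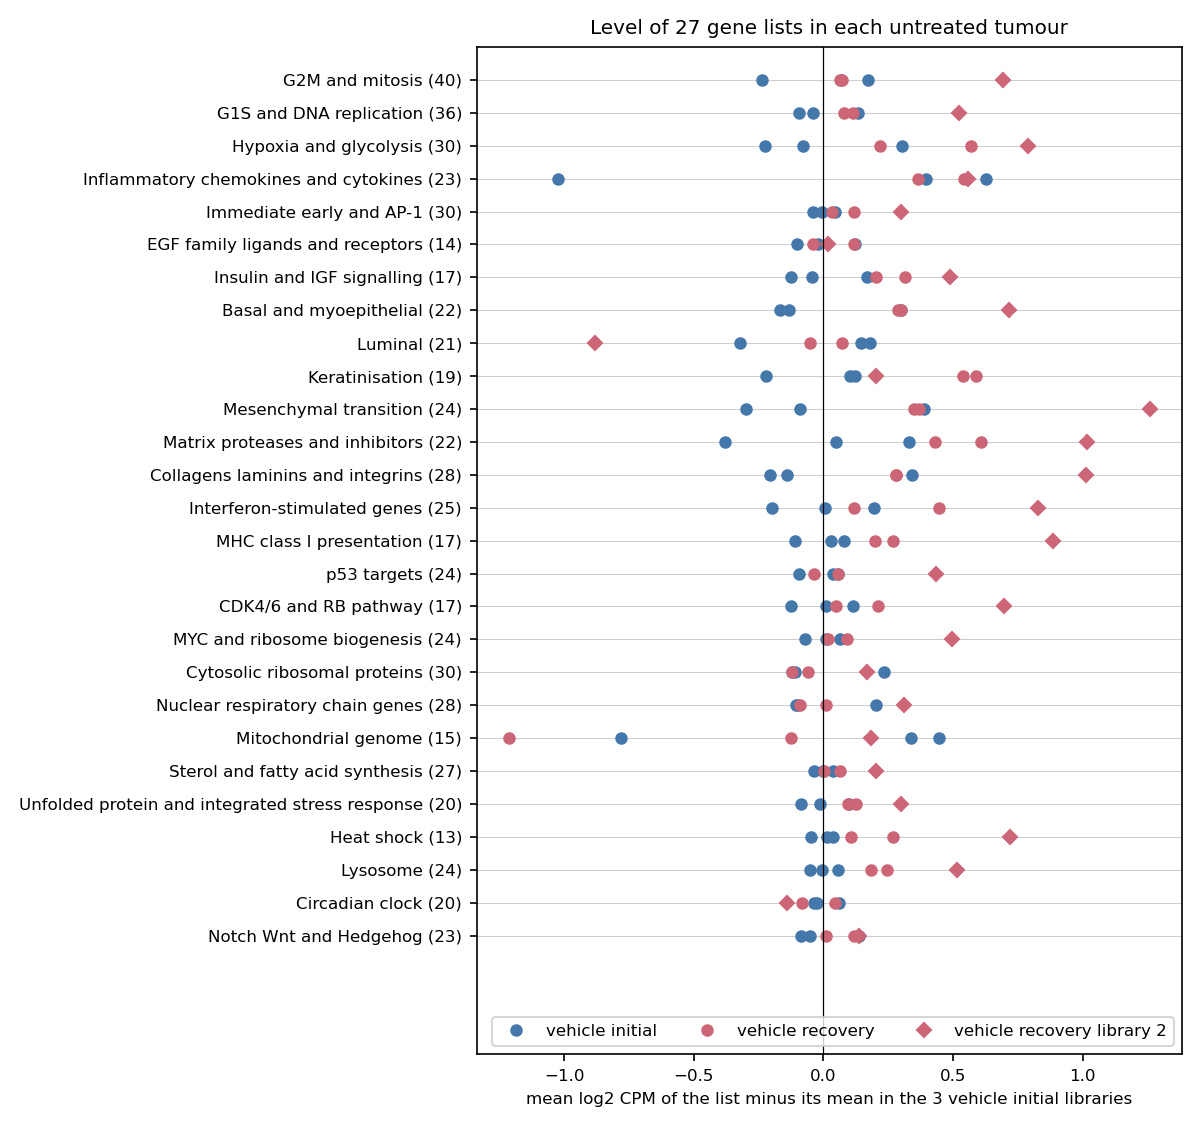
Mean log2 CPM of each of 27 gene lists in the 6 vehicle libraries, set to 0 at the mean of the 3 initial libraries (horizontal axis), with the number of genes tested in brackets. Vehicle recovery library 2 (diamonds) is the farthest right for mesenchymal genes at 1.26 and the farthest left for luminal genes at -0.88, while the other recovery libraries lie between 0.18 and 0.61 for lysosome, hypoxia and matrix protease genes.

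Hypoxia and glycolysis genes had positive values in 30 of 30 members, and their median was 0.51 on the log2 scale, or 0.36 without library 2, where 28 of 30 were positive. At an unadjusted p under 0.05, 17 of 30 were higher, against 7.97% of all genes, and in 11 the groups did not overlap, against 6.71% of all genes. Without library 2, 14 of 30 were higher at that p, against 3.45% of all genes. Per library, the mean of the list was -0.23, 0.30 and -0.08 on the log2 scale in the initial tumours and 0.22, 0.79 and 0.57 in the recovery tumours. Initial library 2 therefore lay above the lowest recovery tumour. Over the alternative settings the median of the list ranged from 0.36 to 0.72.

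Glucose enters by the transporter SLC2A1, known as GLUT1, which was at 218, 350 and 238 CPM in initial and 377, 649 and 453 CPM in recovery tumours. All recovery tumours were higher, and library 2 was the highest. The log2 fold change was 0.88 ± 0.21 (SE, adjusted p = 0.271), and 0.63 without library 2 (adjusted p = 0.409, edgeR). SLC16A3, the lactate exporter MCT4, was at 116, 166 and 115 CPM and then at 171, 253 and 223 CPM. Its log2 fold change was 0.70 ± 0.17 (SE) and 0.57 without library 2, and its groups were separate by a narrow margin. The carbonic anhydrase CA9, a widely used marker of low oxygen, was at 10.5, 14.7 and 10.4 CPM and then at 14.002, 30.4 and 23.4 CPM, so its groups overlapped, with a log2 fold change of 0.93 ± 0.32 (SE, adjusted p = 0.316, edgeR) and 0.64 without library 2.

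In the glycolytic chain, PFKP, ALDOA, TPI1, GPI, PGK1 and PGAM1 had log2 fold changes of 0.36 to 0.59, and in none of them did the groups overlap. Without library 2 the same 6 genes had values of 0.29 to 0.47. The groups overlapped in 4 further enzymes of the chain in this list, HK2 at 0.19, ALDOC at 0.38, ENO1 at 0.23 and ENO2 at 0.88, and the value of ENO1 was 0.08 without library 2. Lactate dehydrogenase LDHA was at 547, 745 and 607 CPM and then at 733, 1490.3 and 866 CPM, with library 2 far above the others. Without it, the log2 fold change of LDHA was 0.34 in place of 0.70. The peptide hormone gene ADM had the tightest recovery values of the list, at 105, 107 and 106 CPM against 42.6, 82.3 and 58.7 CPM at the initial stage, with log2 fold changes of 0.80 and 0.79 with and without library 2. The vessel growth factor VEGFA overlapped, at 355, 533 and 344 CPM and then 459, 593 and 661 CPM, with log2 fold changes of 0.47 and, without library 2, 0.45. PDK1, a kinase that inhibits pyruvate dehydrogenase, had the smallest value of the list at 0.07 ± 0.18 (SE), and 0.18 without library 2. SLC2A3 and DDIT4 turned negative without library 2, at -0.16 and -0.11.

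**Figure D4:**
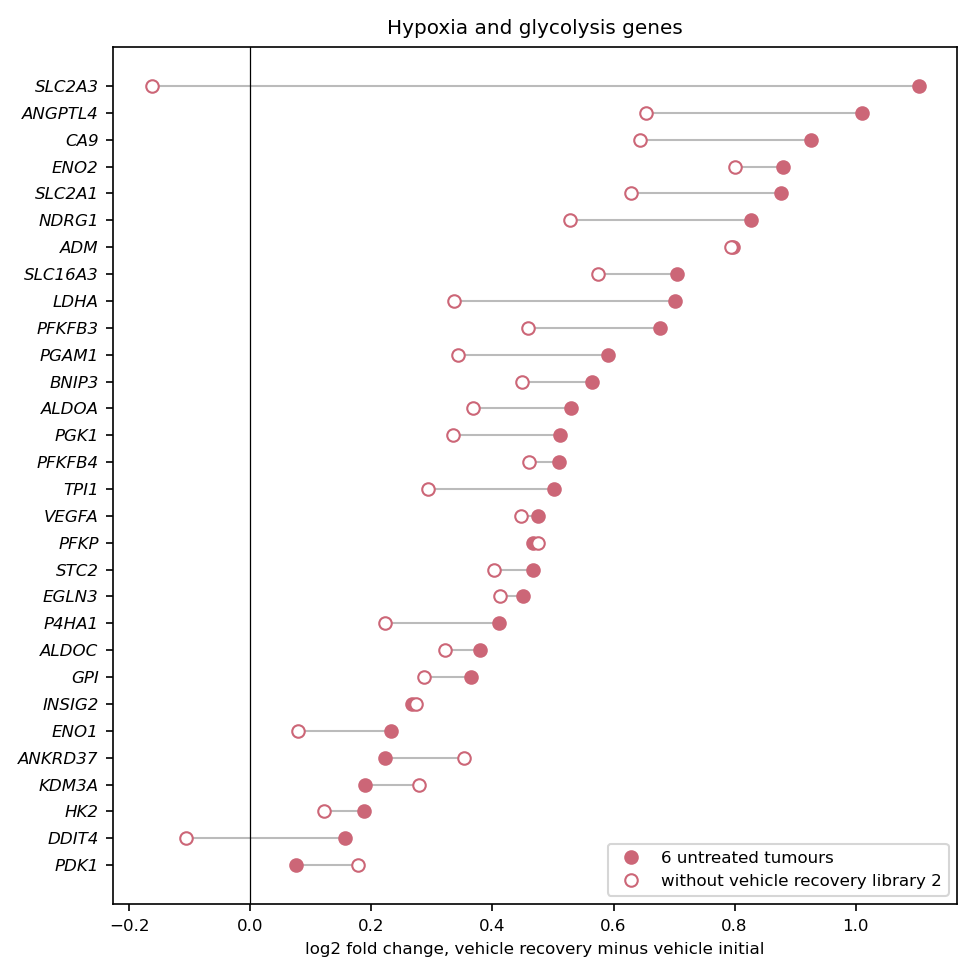
Log2 fold change of the 30 hypoxia and glycolysis genes, vehicle recovery minus vehicle initial (horizontal axis), over all 6 tumours (filled) and without vehicle recovery library 2 (open). All filled points lie right of 0, and without the library SLC2A3 and DDIT4 lie left of it at -0.16 and -0.11.

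The promoters of SLC2A1 and CA9 are printed because all 30 members of the hypoxia list had positive values, and capitals mark the core ACGTG or GCGTG on either strand (RefSeq, GRCh38.p14). SLC2A1 lies on the minus strand at chr1:42958819-42959118 and CA9 on the plus strand at chr9:35673678-35673977.
SLC2A1: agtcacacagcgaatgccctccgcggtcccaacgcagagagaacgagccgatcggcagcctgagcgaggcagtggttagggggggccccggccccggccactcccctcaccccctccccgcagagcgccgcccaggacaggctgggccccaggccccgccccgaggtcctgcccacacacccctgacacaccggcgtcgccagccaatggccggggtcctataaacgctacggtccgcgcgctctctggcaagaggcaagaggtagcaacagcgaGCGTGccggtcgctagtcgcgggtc
CA9: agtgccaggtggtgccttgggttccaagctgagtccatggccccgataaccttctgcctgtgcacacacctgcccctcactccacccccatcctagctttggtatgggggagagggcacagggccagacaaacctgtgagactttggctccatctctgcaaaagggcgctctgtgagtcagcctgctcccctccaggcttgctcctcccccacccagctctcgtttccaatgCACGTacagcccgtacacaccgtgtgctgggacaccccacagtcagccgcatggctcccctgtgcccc
Each of these windows holds 1 match, and the window of SLC16A3 holds 0. Of 27 list genes with an entry in the promoter table, 21 (77.8%) held the core on either strand, against 48.4% of 35116 promoters of the same length. The list was made of hypoxia and glycolysis genes, so this share describes the list and is no test of the change between the collection times. Binding to the core was not tested. The core overlaps the E-box CACGTG, which stood in 4 of the 27 (14.8%) against 7.26% of all promoters. The AP-1 motif TGANTCA, bound by FOS and JUN proteins, stood in 2 of 27 (7.41%) against 7.71% of all.

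Proliferation genes had positive medians that were near 0 without library 2. MKI67, the proliferation marker Ki-67, was at 185, 272 and 200 CPM in initial and 179, 244 and 248 CPM in recovery tumours. The ranges overlapped almost entirely, with a log2 fold change of 0.03 ± 0.21 (SE, adjusted p = 0.958, edgeR), which turned to -0.04 without library 2. Of 40 G2M and mitosis genes, 38 had positive values with a median of 0.28, and in 36 of 40 library 2 was the highest of the 6 tumours, against 6559 of all 18628 genes. Without it the median was 0.03 and 26 of 40 were positive. At an unadjusted p under 0.05, 2 of 40 were higher, and in 3 the groups did not overlap, against 7.97% and 6.71% of all genes. UBE2C, a ubiquitin-conjugating enzyme of mitotic exit, was at 29.6, 28.5 and 22.0 CPM and then at 30.2, 61.3 and 37.5 CPM, with a log2 fold change of 0.68 and, without library 2, 0.33. G1S and DNA replication genes had a median of 0.25, and 0.08 without library 2, with library 2 highest in 32 of 36. In 8 of 36 all recovery tumours were higher, also without library 2, where the shares of all genes were 6.71% and 10.5%. At an unadjusted p under 0.05, 4 of the 36 were higher, against 7.97% of all genes. Without library 2, 0 of the 36 were higher, against 3.45% of all genes.

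In the CDK4/6 and RB pathway, the target of the drug of the other arm, the median of 17 genes was 0.33, and 0.05 without library 2. Cyclin D1, CCND1, was at 183, 204 and 193 CPM and then at 230, 243 and 230 CPM. Its groups were separate by a small step, with a log2 fold change of 0.28 ± 0.12 (SE, adjusted p = 0.330, edgeR) and 0.25 without library 2. The CDK inhibitor gene CDKN1A overlapped, at 78.2, 111 and 82.4 CPM and then 99.6, 141 and 117 CPM. MYC, at 143, 154 and 137 CPM and then 147, 170 and 150 CPM, also overlapped, with a log2 fold change of 0.10 ± 0.11 (SE) and 0.03 without library 2.

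Mesenchymal genes and matrix proteases had the highest list medians over the 6 tumours. Without library 2 both were lower, and keratinisation had the highest. The median of 24 mesenchymal genes was 0.76, with 23 positive, and 0.35 without library 2. For 22 matrix proteases and inhibitors it was 0.75, with 19 positive, and 0.42 without library 2. For 28 collagens, laminins and integrins it was 0.48, and 0.27 without library 2. All recovery tumours were higher in 9 of the 22 matrix proteases and inhibitors, against 6.71% of all genes. Without library 2 this held for 10 of the 22, against 10.5% of all genes. POSTN, the matrix protein periostin, was at 199, 239 and 163 CPM in initial and 332, 1157 and 266 CPM in recovery tumours. The other recovery tumours were still above all initial ones, with a log2 fold change of 1.55 ± 0.45 (SE, adjusted p = 0.304) and 0.58 without library 2 (adjusted p = 0.220, edgeR).

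VIM, the intermediate filament vimentin, was at 261, 414 and 286 CPM and then at 408, 888 and 472 CPM, so the lowest recovery value was below the highest initial one, and its log2 fold change of 0.88 became 0.46 without library 2. COL7A1, the anchoring fibril collagen of the basement membrane, was at 110, 210 and 106 CPM and then at 257, 211 and 275 CPM. Library 2 was here the lowest recovery tumour, with a log2 fold change of 0.80 ± 0.23 (SE) and 0.91 without it. COL7A1 passed with initial library 2 left out (adjusted p = 0.0296, edgeR). The collagenase MMP13 was low, at 0.780, 0.879 and 0.791 CPM and then 1.40, 7.502 and 2.34 CPM, and its inhibitor TIMP2 was at 26.4, 32.3 and 27.8 CPM and then 35.2, 79.4 and 42.2 CPM. The groups were separate in both genes, with log2 fold changes of 2.19 and 0.86, and 1.15 and 0.42 without library 2.

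Of 7 tested fibroblast markers, COL1A2 and PDGFRB were more than 2-fold higher in library 2 than in both other recovery tumours. COL1A2 was at 0.867, 2.01 and 0.791 CPM in initial and 2.19, 32.7 and 1.82 CPM in recovery tumours. COL3A1 was at 213, 136 and 127 CPM and then at 115, 120 and 67.6 CPM. The summed level of 9 fibroblast markers was 149 to 231 CPM at the initial stage and 96.9 to 183 CPM at recovery, with DPT at 0, and the part of such cells or of misassigned mouse reads in these values was not tested.

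Basal and luminal genes went apart in library 2. The median of 22 basal and myoepithelial genes was 0.54, with 19 positive, and 0.27 without library 2. The contractile genes of the list were not among the positive ones, with log2 fold changes of -0.81 for ACTA2, -0.29 for TAGLN, whose recovery tumours were all lower, and -0.07 for MYLK. KRT14 was at 935, 978 and 849 CPM in initial and 1174, 1559 and 1464 CPM in recovery tumours, which were all higher. Its log2 fold change was 0.60 ± 0.16 (SE, adjusted p = 0.286), and 0.52 without library 2 (adjusted p = 0.328, edgeR). KRT5 was at 1038, 1058 and 979 CPM and then at 1188, 1662 and 1215 CPM, also separate, with a log2 fold change of 0.40 ± 0.17 (SE) and 0.23 without library 2. The basal regulator TP63, at 78.4, 109 and 69.1 CPM and then 94.1, 212 and 73.6 CPM, had a log2 fold change of 0.56 ± 0.36 (SE), which was -0.03 without library 2.

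The median of 21 luminal genes was -0.14, and 0.06 without library 2, where 13 of 21 were positive, and 2 were higher and 2 lower at an unadjusted p under 0.05, against 3.45% and 3.44% of all genes. In 9 of the 21, among them the luminal transcription factors ELF5, EHF, SPDEF and ELF3, library 2 was more than 2-fold below both other recovery tumours. SPDEF was at 119, 63.3 and 74.5 CPM in initial and 61.4, 18.9 and 60.9 CPM in recovery tumours. FOXA1, a pioneer factor for the oestrogen receptor, was at 10.3, 8.41 and 9.33 CPM and then at 8.14, 3.17 and 5.59 CPM, all lower, with a log2 fold change of -0.73 ± 0.27 (SE) and -0.43 without library 2. KRT8 overlapped, with a log2 fold change of 0.11 ± 0.16 (SE) and 0.23 without library 2.

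Keratinisation had a median of 0.37 for 19 genes, which was 0.52 without library 2 and 0.18 without recovery library 1. Of the 19, 14 were positive and 5 negative, namely KRT4, S100A8, S100A9, CALML5 and DSG1. At an unadjusted p under 0.05, 5 were higher and 1, KRT4, lower, against 7.97% and 6.46% of all genes. The 2 genes given next had small p-values in the list and do not stand for all members. Involucrin, IVL, a protein of the cornified envelope, was at 2.69, 2.26 and 2.37 CPM in initial and 6.91, 7.98 and 7.94 CPM in recovery tumours. Both groups were tight, and the log2 fold change was 1.62 ± 0.51 (SE, adjusted p = 0.316), and 1.58 without library 2 (adjusted p = 0.731, edgeR). The skin protease KLK6 was at 17.6, 8.41 and 25.6 CPM and then at 54.9, 35.1 and 40.8 CPM, 2.56-fold higher, with a log2 fold change of 1.35 ± 0.40 (SE) and 1.5003 without library 2. Of 30 genes in this list, 11 were too low to be tested, among them the late differentiation genes LOR and FLG.

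All 17 tested MHC class I presentation genes had positive values, with a median of 0.47, and 0.22 without library 2, where 16 were positive. In 8 of 17 the groups did not overlap, against 6.71% of all genes. B2M, the invariant light chain, was at 186, 210 and 171 CPM in initial and 267, 373 and 239 CPM in recovery tumours. HLA-B was at 47.3, 57.7 and 43.8 CPM and then at 69.7, 129 and 71.9 CPM, and counts could be shared with other class I genes of near-identical sequence. Their log2 fold changes were 0.63 ± 0.16 and 0.86 ± 0.21 (SE), each with an adjusted p of 0.271, and 0.42 and 0.51 without library 2 (adjusted p = 0.286 and 0.220, edgeR). Interferon-stimulated genes had a median of 0.45, and 0.19 without library 2. All recovery tumours were higher in 1 of 25 genes, OAS2, against 6.71% of all genes. Without library 2 this held for 4 of 25, against 10.5% of all genes.

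Lysosome genes had a median of 0.24 with 22 of 24 positive, and 0.16 without library 2. The carboxypeptidase CTSA was at 44.8, 52.0 and 47.1 CPM and then at 65.0, 87.3 and 60.9 CPM, and progranulin, GRN, at 80.9, 81.8 and 64.9 CPM and then 107, 160 and 101.3 CPM. In both, the recovery tumours were all higher, with log2 fold changes of 0.57 and 0.69, and 0.40 and 0.46 without library 2. Heat shock genes had a median of 0.36, and 0.19 without library 2.

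Growth factor genes did not share a sign. In the EGF family, NRG1, the neuregulin ligand of ERBB3 and ERBB4, was at 44.6, 43.8 and 35.8 CPM in initial and 16.6, 22.4 and 12.4 CPM in recovery tumours. All recovery tumours were lower and library 2 was the highest of them, with a log2 fold change of -1.27 ± 0.26 (SE, adjusted p = 0.228) and -1.50 without library 2 (adjusted p = 0.217, edgeR). The EGF receptor ligands EREG, AREG and EPGN had positive values of 0.89, 0.94 and 1.24, and 0.51, 0.56 and 0.97 without library 2, with overlap in EREG and AREG. The list median was 0.18, and 0.12 without library 2 and -0.00911 without initial library 1. In insulin and IGF signalling, the binding protein IGFBP5 was at 72.6, 141 and 73.2 CPM and then at 236, 664 and 175 CPM, and IGFBP3 at 74.0, 225 and 143 CPM and then 277, 289 and 324 CPM. Both were separate, with log2 fold changes of 1.90 and 1.02, and 1.10 and 1.04 without library 2, and that list's median was 0.35, and 0.14 without library 2.

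Among immediate early genes, DUSP5, a phosphatase that acts on ERK in the nucleus, had initial values of 32.7, 32.6 and 32.4 CPM and recovery values of 46.6, 55.0 and 44.8 CPM. Its log2 fold change was 0.58 ± 0.12 (SE, adjusted p = 0.210), and 0.49 without library 2 (adjusted p = 0.166, edgeR). The list had a median of 0.28, and 0.05 without library 2. Inflammatory chemokines varied most within the initial group: CXCL8, interleukin 8, was at 11.9, 58.6 and 56.2 CPM and then at 44.8, 32.2 and 52.0 CPM. The list median was 0.33, but 0.03 without initial library 1 and 1.70 without initial libraries 2 and 3, the libraries of high mitochondrial share, whose part in this was not tested.

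In the circadian clock list, signs were mixed at a median of -0.07. The clock activator ARNTL, at 32.6, 37.8 and 32.6 CPM and then 45.3, 46.8 and 46.4 CPM, had a log2 fold change of 0.43 ± 0.13 (SE) and 0.42 without library 2. TSC22D3, a target of glucocorticoids, was at 27.8, 17.2 and 20.6 CPM and then at 14.9, 11.8 and 12.7 CPM, with a log2 fold change of -0.74 ± 0.21 (SE) and -0.67 without library 2. The groups of both were separate, and their adjusted p-values were 0.301 and 0.295 by edgeR. The time of day of collection is not given in the labels.

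Housekeeping lists had medians near that of all genes over the 6 tumours. Cytosolic ribosomal proteins had a median of -0.02 and nuclear genes of the respiratory chain 0.09, with no member at an unadjusted p under 0.05 in either list. Without library 2 the medians were -0.10, with 1 of 30 positive in place of 12, and -0.04, with 7 of 28 positive in place of 23. The 15 genes of the mitochondrial genome had a median of 0.05 with 9 positive, and -0.33 with 0 positive without library 2. Its sign depended on the libraries used, since the median was 0.62 without initial libraries 2 and 3. Of the mitochondrial ribosomal RNAs, MT-RNR1 was at 2189.6, 17079 and 43368 CPM in initial and 321, 1403 and 2612 CPM in recovery tumours. The highest recovery value was above the lowest initial one, and the log2 fold change of -3.85 ± 1.03 (SE, adjusted p = 0.2995, edgeR) carried a wide error. It was -3.83 without library 2, but -0.60 without initial libraries 2 and 3 (adjusted p = 0.900, edgeR). The mitochondrial share of human counts, 5.95% ± 4.96 and 1.56% ± 0.998 (SD, n = 3), gave an exact two-sided permutation p of 0.3.

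The same interval was then compared with that of the palbociclib arm, which shares no library with the vehicle arm. Both arms share the estimated spread of each gene, so p-values of genes picked by their vehicle p are not independent between the arms. The change in the palbociclib arm contains both the passage of time and the recovery from the drug. In that arm, 439 genes rose (2.36%) and 87 fell (0.467%) between the initial stage and recovery at an adjusted p under 0.05 with edgeR. Of the 5 lower genes of the vehicle arm, INSYN2B, NTRK2, NTNG1 and RBM20 fell at that threshold, at log2 fold changes of -1.71, -1.37, -1.36 and -1.73. LINC02006 was at -1.24 and did not pass (adjusted p = 0.0986, edgeR). Of the 5 higher genes, AHR, DUSP10 and UPP1 rose there, at 0.77, 1.51 and 1.84. EVA1A, at 0.32, and ABCA1, at -0.11, did not pass (adjusted p = 0.158 and 0.922, edgeR). NRG1 fell by 1.91 on the log2 scale there. For NTRK2 the difference between the arms was 0.10 ± 0.29 (SE), with an adjusted p of 0.973 for that difference. Across the 18628 genes the 2 changes had a Pearson correlation of 0.43 and a Spearman correlation of 0.45, and 0.37 and 0.39 without library 2, with the same sign in 12453 genes, as a description across genes, which are not independent replicates.

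The change differed between the arms in 41 genes (0.220%) by the test of the difference itself, and in 161 genes (0.832%) without vehicle recovery library 2. Without any other single vehicle library it differed in 14 to 21 genes. MKI67 rose by 2.17 on the log2 scale in the palbociclib arm, from 37.7, 56.2 and 28.9 CPM to 179, 187 and 185 CPM, beside 179 to 272 CPM in the 6 vehicle tumours. The difference between the arms was -2.14 ± 0.31 (SE), vehicle minus palbociclib, with an adjusted p of 0.0118, and 0.0336 without library 2. UPP1 rose in that arm from 21.6, 21.3 and 23.3 CPM to 79.5, 81.7 and 76.2 CPM, and its difference was -1.18 ± 0.19 (SE), with an adjusted p of 0.0183, and 0.00203 without library 2.

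CCND1 went the other way in the palbociclib arm, where it fell by 0.54 on the log2 scale (adjusted p = 0.0239). The difference between the arms, 0.81 ± 0.16 (SE), had an adjusted p of 0.0740 and passed without library 2 at 0.0131. ABCA1 was at 2.76, 3.62 and 3.48 CPM and then at 3.02, 2.69 and 3.40 CPM in the palbociclib arm, so all 6 of those tumours were below the vehicle recovery tumours. The difference of 1.73 ± 0.44 (SE) did not pass, with an adjusted p of 0.245, and 0.140 without library 2. For hypoxia genes the median change was 1.06 in the palbociclib arm against 0.51 in the vehicle arm, and CA9 rose there by 2.60, with an adjusted p of 0.510 for the difference between the arms. For G2M genes the medians were 1.90 and 0.28.

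**Figure D5:**
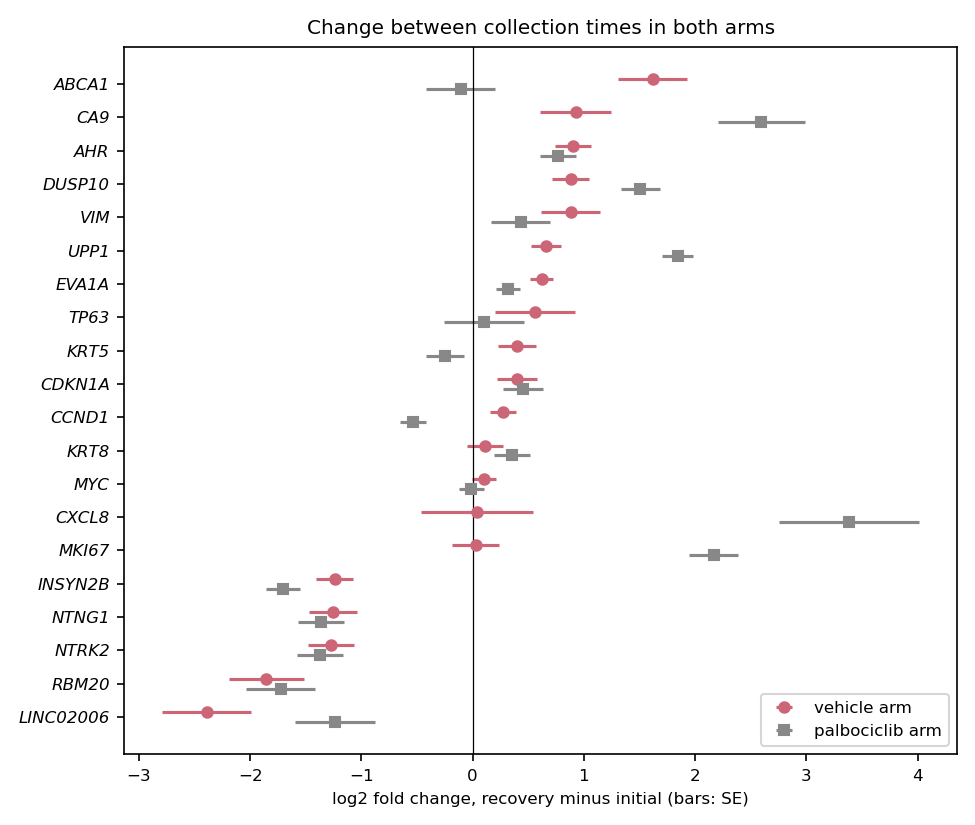
Log2 fold change between the stages, recovery minus initial (horizontal axis), of 20 named genes in the vehicle arm (red circles) and the palbociclib arm (grey squares), with bars of 1 SE. NTRK2 and NTNG1 lie close together in the arms, at -1.27 and -1.37 and at -1.25 and -1.36, while MKI67 lies at 0.03 and 2.17.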

How the data were processed

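RNA of homogenised tumours was extracted with RNeasy columns and made into TruSeq RNA libraries, per the labels' protocols. The authors deposited 1 file of raw counts for each tumour, with Ensembl genes of human and mouse as rows. Tools named in the submitters' processing notes are CASAVA 1.8, STAR, cutadapt and edgeR, beside GRCh38 and GRCm38 as builds. The counting program, strand setting, annotation release and treatment of reads that fit both genomes stayed unstated (not given in the sources used here), so overlapping, antisense and near-identical genes are uncertain. The 4 rows per file that name no gene were left out of library sizes (37.0% to 69.1% of all counts), and 713 repeated rows were removed. Symbols and coordinates came from GENCODE 29 for 57980 of 58243 human identifiers. Mouse genes were summed only.

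Human counts of all 12 libraries entered 1 quasi-likelihood model in edgeR 4.0.16 (R 4.3.3), with 4 group means, TMM scaling, robust estimation and the filterByExpr defaults (minimum count 10, minimum total 15). The biological coefficient of variation was 0.18. Genes passed at a Benjamini-Hochberg adjusted p under 0.05 over all 18628 genes. CPM use the scaled human totals, log2 list levels add a prior count of 2, and standard errors were computed from fold change and F statistic. With 8004903 to 14572683 gene counts per vehicle library, genes near 1 CPM rest on about 10 counts. Replicate pairs differed beyond counting noise (chi-square per degree of freedom 12.7 to 53.2), so none was counted as a duplicate. The steps were tested on simulated data.

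The members and the gene lists were chosen with earlier results of these data known. Named genes are the 5 per direction with the smallest p (mean log2 CPM of at least 1), 2 per list with the smallest p, 10 fixed genes, and further list members and genes chosen after their values were seen. DESeq2 1.42.0, other filters, scalings and covariates, and fits without single libraries were alternatives. Replicate numbers follow accession order and only name tumours.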

Additional observations from a re-analysis of the deposited data

Results flagged for a closer look

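MKI67 stood out because its change between the stages differed between the arms: the difference, vehicle minus palbociclib, was -2.14 on the log2 scale (adjusted p = 0.0118 for the difference, edgeR), with changes of 0.03 in the vehicle arm and 2.17 in the palbociclib arm. UPP1 differed in the same way, at -1.18 (adjusted p = 0.0183), with changes of 0.66 and 1.84. Both differences also passed without vehicle recovery library 2, at adjusted p = 0.0336 and 0.00203.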

How the results depend on the processing

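No paired analysis was possible because the labels give the groups no shared replicate number. The count of genes that passed, 0 over all 6 tumours, was 0 to 6 when 1 library was left out, with 0 to 2 higher and 0 to 6 lower. It was 1, lower, with DESeq2's size factors or without mitochondrial genes, 3, lower, with the share of the largest unnamed row as a covariate, and 83 (46 higher, 37 lower) with the DESeq2 Wald test. Without a filter on low counts, with or without robust estimation, it was 1124 (837 higher, 287 lower), where edgeR's prior degrees of freedom were infinite against 5.99 with the filter. It remained 0 with at least 10 counts in every library, only the 6 vehicle libraries, no initial libraries 2 and 3, the human plus mouse total, a covariate for the mouse share or for the fourth unnamed row, or no robust estimation. The fourth-row covariate, chosen after seeing the data as were the fits without robust estimation, left 1012 genes at an unadjusted p under 0.05 in place of 2687.

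The arms differed in 41 genes, in 14 to 161 without 1 vehicle library (161 without recovery library 2, 14 to 21 otherwise), in 4 without initial libraries 2 and 3, in 16 and 78 with the fourth and the largest unnamed row as a covariate, and in 320 without a filter. Signs turned for some genes: RPLP1 (-0.0324 to 0.51), SDHC (-0.00182 to 0.38), MKI67 (-0.0759 to 0.22), TP63 (-0.0271 to 0.86), KRT8 (-0.0127 to 0.25) and CXCL8 (-0.41 to 0.37) over the fits without 1 library. Without initial libraries 2 and 3, MT-RNR2 turned to 0.47 and KRT8 to -0.12. With the fourth unnamed row as a covariate MT-RNR2 also turned, to 0.25, and MT-RNR1 was -1.06 in place of -3.85, and with the stricter filter the MKI67 log2 fold change turned to -0.0256 and the CXCL8 log2 fold change to -0.00494. The cause was not tested. The number of tumours, 3 per group, and for low genes the counts, limit the precision.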

Other observations

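Single transcripts took different shares of human counts in the vehicle tumours. FN1, which encodes the matrix protein fibronectin, took 0.581%, 1.55% and 0.633% in the initial and 1.61%, 2.68% and 1.63% in the recovery tumours, which were all higher. The nuclear noncoding RNAs MALAT1 and NEAT1 took 0.829%, 1.04% and 0.980% and 0.224%, 0.360% and 0.297% in the initial tumours. In the recovery tumours MALAT1 took 0.679%, 0.429% and 0.749%, and NEAT1 0.187%, 0.0578% and 0.216%. Every recovery tumour was lower for both, and library 2 was the lowest.

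Classes of noncoding genes were also low in vehicle recovery library 2. Long intergenic noncoding RNAs took 0.790% of its human counts, against 1.34% to 1.95% in the other 5 vehicle tumours, and antisense genes 0.293%, against 0.537% to 0.626%. Human genes with at least 1 count numbered 26911 in this library and 27699 to 29446 in the others.

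THRSP, a regulator of fatty acid synthesis, was at 32.2, 25.2 and 33.4 CPM in initial and 21.2, 3.85 and 10.02 CPM in recovery tumours. COLCA1 was at 16.5, 11.7 and 16.3 CPM and then at 4.73, 0.577 and 2.34 CPM, and is annotated as antisense. Both passed only without vehicle recovery library 1 among the fits that left out 1 library, and neither passed in the palbociclib arm (adjusted p = 0.228 and 0.0720, edgeR).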
